A study of Mus musculus with 3 samples.

Results

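Gene-body regions of Yap1 signal that lie 60 kb or more from the start of the gene that holds them were described in mouse heart after a sham operation and after transverse aortic constriction (TAC), an operation that narrows the aortic arch and puts the left ventricle under pressure load. They were taken from a deposited table of 22020 merged Yap1 regions by position alone. A region had to be listed as lying in a gene with 60000 bp or more from its midpoint to that gene's start. It also had to carry no counted promoter, no counted CpG island and a length under 8000 bp. This left 2815 regions, 12.8% of the table, called far regions here. Of 3047 regions at that distance inside a gene, 85 were left out with a counted promoter, 98 with a CpG island and 73 for their length, some of them for more than 1 of these reasons. All 2815 had a value in both libraries. No filter on weak signal was used beyond the authors' peak calling, which brought a region into the table.

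Both groups were wild-type male C57BL/6J mice, 3 per operation by the series' design, and carried no engineered allele. Hearts were collected 7 days after either operation, snap frozen and processed commercially with an anti-YAP1 antibody, giving 1 library per operation, plus an input library pooled from both operations that was not analysed here. Whether the chromatin of the 3 mice was pooled for a library is not stated. Replicates are lacking, so every difference below compares 2 libraries, has no test and cannot be told apart from variation between mice or between library preparations. The tissue was whole heart, so a change in the share of a cell type and a change in signal per cell cannot be told apart either.

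Yap1 is a transcriptional co-activator that has no DNA-binding domain of its own and is held on chromatin mainly by TEAD factors, whose motif core reads GGAATG. In the Hippo pathway the kinases Mst1/2 activate the kinases Lats1/2, which phosphorylate Yap1 and keep it out of the nucleus. In many cell types most Yap1 sites are distal enhancers that also carry AP-1 motifs, and in the heart Yap1 is known for its part in cardiomyocyte proliferation and in the response to load. Sites deep inside long genes may be enhancers, or they may be the internal promoters of short isoforms.

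The authors measured the distance from a single start per gene, so the far regions were compared with other starts annotated in RefSeq. RefSeq windows of 300 bases, from 250 before to 50 after a start (GRCm38.p6, the assembly of which mm10 is the primary part), were given for the host genes of 2098 far regions. The nearest annotated start of the same gene was still 60 kb or more away in 1665 of them (79.4%) and lay within 5000 bp in 69. A whole window fell inside the region in 38 far regions of 37 genes, with 40 windows between them. These 38 are thus far from the listed start but sit on an internal start of their own gene. The next 6 windows show such starts in the 3 genes where signal was strongest, in 2 genes with several motif matches, and in Rcan1, whose internal start is well known from the loaded heart. The first belongs to Syne1, which encodes the nuclear envelope scaffold nesprin-1, at chr10:5069014-5069313 on the minus strand. Sgms1, sphingomyelin synthase 1, has its window at chr19:32210964-32211263 on the minus strand. The window of Lmo7, an actin-associated protein of cell junctions, is at chr14:101840373-101840672 on the plus strand. Mkl2 (Mrtfb in RefSeq), an actin-sensing co-activator of serum response factor, has its window at chr16:13358171-13358470 on the plus strand. Ppp1r12b, a myosin phosphatase targeting subunit of striated muscle, has its window at chr1:134803793-134804092 on the minus strand. Rcan1, whose internal start makes an isoform induced by calcineurin and NFAT, has its window at chr16:92400029-92400328 on the minus strand. Capitals mark the letters GGAATG (TEAD), TGANTCA (AP-1) and the MEF2 motif on either strand, so that a TEAD match on the other strand reads CATTCC.
Syne1: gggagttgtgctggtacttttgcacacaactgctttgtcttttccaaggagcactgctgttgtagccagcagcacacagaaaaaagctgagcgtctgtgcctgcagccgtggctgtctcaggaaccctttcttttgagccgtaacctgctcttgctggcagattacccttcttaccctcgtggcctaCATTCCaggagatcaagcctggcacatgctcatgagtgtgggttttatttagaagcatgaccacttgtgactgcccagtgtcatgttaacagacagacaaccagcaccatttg
Sgms1: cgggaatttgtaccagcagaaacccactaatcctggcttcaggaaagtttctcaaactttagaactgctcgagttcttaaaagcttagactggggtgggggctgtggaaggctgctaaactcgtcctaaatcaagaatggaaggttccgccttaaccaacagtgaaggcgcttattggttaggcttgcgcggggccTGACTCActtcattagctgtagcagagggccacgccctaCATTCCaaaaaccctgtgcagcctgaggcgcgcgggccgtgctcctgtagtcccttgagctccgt
Lmo7: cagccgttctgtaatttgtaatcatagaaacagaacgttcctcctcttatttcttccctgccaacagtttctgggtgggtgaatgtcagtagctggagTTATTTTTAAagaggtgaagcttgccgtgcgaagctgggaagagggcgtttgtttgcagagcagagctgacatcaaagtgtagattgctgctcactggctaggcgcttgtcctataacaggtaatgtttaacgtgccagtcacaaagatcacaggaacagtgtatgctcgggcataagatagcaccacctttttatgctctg
Mkl2: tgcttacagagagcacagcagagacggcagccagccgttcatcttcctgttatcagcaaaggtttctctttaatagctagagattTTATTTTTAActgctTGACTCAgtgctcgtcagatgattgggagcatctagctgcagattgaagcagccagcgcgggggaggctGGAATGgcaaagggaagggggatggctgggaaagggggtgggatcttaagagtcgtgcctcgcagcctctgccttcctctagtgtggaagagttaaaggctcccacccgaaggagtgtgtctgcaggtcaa
Ppp1r12b: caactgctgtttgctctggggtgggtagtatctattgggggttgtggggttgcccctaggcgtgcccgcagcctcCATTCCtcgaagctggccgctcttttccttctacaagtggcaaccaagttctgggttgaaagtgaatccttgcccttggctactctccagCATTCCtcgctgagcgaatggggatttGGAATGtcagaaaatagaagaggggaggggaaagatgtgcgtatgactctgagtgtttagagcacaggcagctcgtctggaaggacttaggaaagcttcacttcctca
Rcan1: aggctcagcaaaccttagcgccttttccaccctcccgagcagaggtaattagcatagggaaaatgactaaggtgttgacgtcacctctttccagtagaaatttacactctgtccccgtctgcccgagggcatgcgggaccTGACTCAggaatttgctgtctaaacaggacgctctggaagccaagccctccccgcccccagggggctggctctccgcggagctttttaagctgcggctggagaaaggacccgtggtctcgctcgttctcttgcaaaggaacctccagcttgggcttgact

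The Ppp1r12b window held 3 TEAD matches, the Sgms1 and Mkl2 windows each held 1 TEAD and 1 AP-1 match, and the Rcan1 window held 1 AP-1 match and 3 matches to GGAAA, the core letters of an NFAT site. Over the 40 internal windows, searched on both strands, the TEAD letters were found in 7 (17.5%) against 14.7% of all 32817 different RefSeq windows. The AP-1 letters were found in 7 (17.5%) against 7.81%. The nuclear receptor motif AGGTCA was found in 27.5% against 16.3%, the NFAT letters in 70.0% against 61.3%, the E-box CANNTG in 80.0% against 72.3%, and the GATA letters AGATAA in 7.5% against 11.2%. Of the longer motifs, MEF2 was found in 3 windows (7.5%, against 3.19%), the CArG box in 1 (2.5%, against 1.63%) and the glucocorticoid element in 0 (against 0.222%). Matches of different motifs may overlap, and a match describes letters in these windows, not binding. With 40 windows these shares rest on few matches.

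The 6 regions around these starts all carried more average signal in the sham library than in the TAC library. A ratio below 0 was found in 94.7% of far regions and 94.6% of all regions, so this count is not particular to these starts. The Syne1 region (chr10:5067874-5070187, 481662 bp from the listed start) had an average signal of 21.5 in sham and 13.3 in TAC, in the deposited signal units. Values were 19.3 and 10.9 for Sgms1, 19.9 and 9.63 for Lmo7, 14.8 and 11.0 for Mkl2, and 13.4 and 9.97 for Ppp1r12b. The Rcan1 region (chr16:92396078-92401382) had 12.6 in sham and 10.7 in TAC, the smallest difference of the 6. Expressed as log2((TAC + 1)/(sham + 1)), the ratio used throughout, Rcan1 stood at -0.22 and Lmo7 at -0.98. The start at Mef2c, a cardiac transcription factor, was close to Rcan1 with a ratio of -0.22, from 11.4 in sham and 9.63 in TAC.

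Far regions with an internal start of their host gene were called in the TAC library more often than the other far regions. A call marks that the authors' peak caller placed an interval of that library in the region. A TAC call was present in 22 of the 38 (57.9%, 95% Wilson interval 42.2 to 72.1, counting error only) and in 968 of the other 2777 (34.9%, 33.1 to 36.6). Windows were given for the host genes of 2098 far regions only. The other 2777 thus include regions that could not be checked for an internal start. Of all 22020 regions 48.7% had one, which lies inside the interval of the 38. Their median average signal was 10.6 in sham and 7.30 in TAC, against 9.53 and 6.28. Their median ratio was -0.52 against -0.60, and 19 of the 38 lay below the median of all 22020 regions. They were also longer, with a median of 2809 bp against 2002 bp, and the part of length in the share of calls was not tested.

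Signal over the 2815 far regions was weaker than over all regions and was lower in the TAC library almost throughout. Over all 22020 regions the median average signal was 10.6 in sham and 7.46 in TAC. Average signal had a median of 9.54 in the sham library, with quartiles of 8.41 and 11.1, and of 6.29 in the TAC library, with quartiles of 5.11 and 7.58, and the median of the highest signal within a region was 20 in sham and 14 in TAC. The ratio had a median of -0.60 (95% order-statistic interval over regions -0.62 to -0.59), a 1.52-fold lower signal in TAC. It was below 0 in 2666 far regions (94.7%, against 94.6% of all regions). A region entered the table through a call in 1 or both libraries, and 1825 far regions had a sham call alone. Such entry favours a sham signal above the TAC signal, and its part in these values was not tested. The shift is one of the whole table, since the median over all 22020 regions was -0.54, and the scaling of 1 library to the other by the authors is not stated. Values called relative below have that -0.54 subtracted. Relative counts under alternative processing instead used the median of all regions under each alternative. Far regions past 1.5-fold lower as deposited numbered 1478, or 52.5%, where 43.0% of all regions were past that size. Those past 1.5-fold higher numbered 15, or 0.533%, against 0.486% of all regions. On the relative scale 116 (4.12%, 3.45 to 4.92) were 1.5-fold lower against 2.31% of all regions, and 119 (4.23%) were 1.5-fold higher against 4.42%. Only 28.3% of far regions reached the median mean signal of all regions, and the part of weak signal in these shares was not tested.

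**Figure D1:**
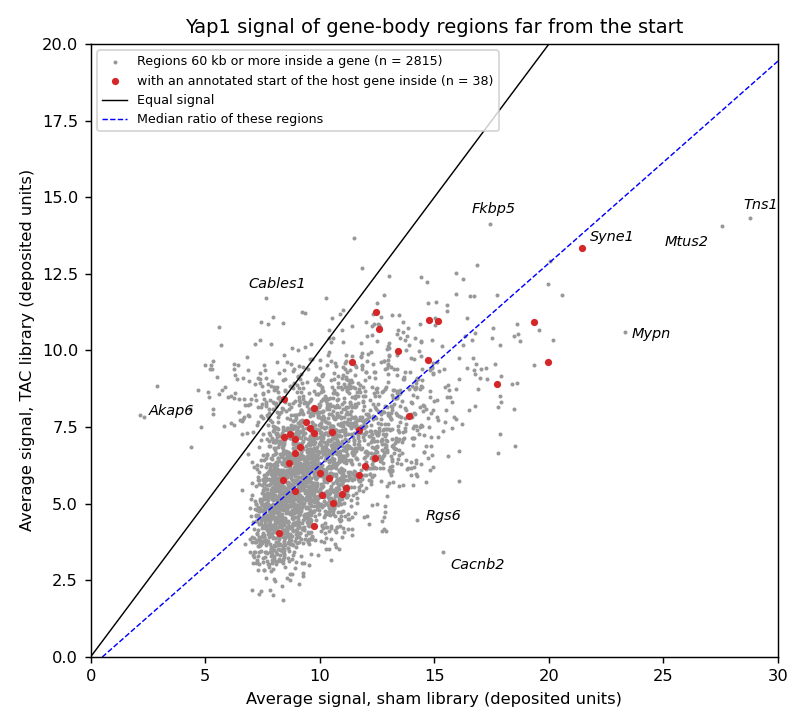
Average Yap1 signal of each far region in the sham library (horizontal axis) and the TAC library (vertical axis), in deposited signal units; red points hold an annotated start of their host gene. Of the 2815 points, 2666 lie below a ratio of 0, which is the solid line, and the dashed line is their median ratio of -0.60.

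Fewer far regions were called in the TAC library than in the sham library. A sham call was present in 2710 far regions (96.3%, against 96.6% of all regions) and a TAC call in 990 (35.2%, 33.4 to 37.0, against 48.7%). Both calls were present in 885 (31.4%, against 45.3%) and a sham call alone in 1825 (64.8%, against 51.3%). A TAC call alone was present in 105 (3.73%, against 3.40%), whose median ratio was 0.24. In 15 of these 105 the sham signal was at or above the TAC signal, so a missing call is not a missing signal.

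The share of TAC calls resembled that of other gene-body regions and lay under that of promoters. Among regions selected in the same way at 20 to 60 kb from the start (n = 2238), 34.7% had a TAC call, and within 20 kb (n = 1964) 31.3% had one. Among 9779 regions with a counted promoter the share was 61.0%. Median ratios were -0.59 for both nearer gene-body classes and -0.49 for promoter regions. The far regions and the regions within 20 kb differed by -0.01, which is not a difference that 1 library per operation can show. Relative 1.5-fold lower regions made up 4.12% of the far class, 3.04% at 20 to 60 kb and 3.31% within 20 kb.

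**Figure D2:**
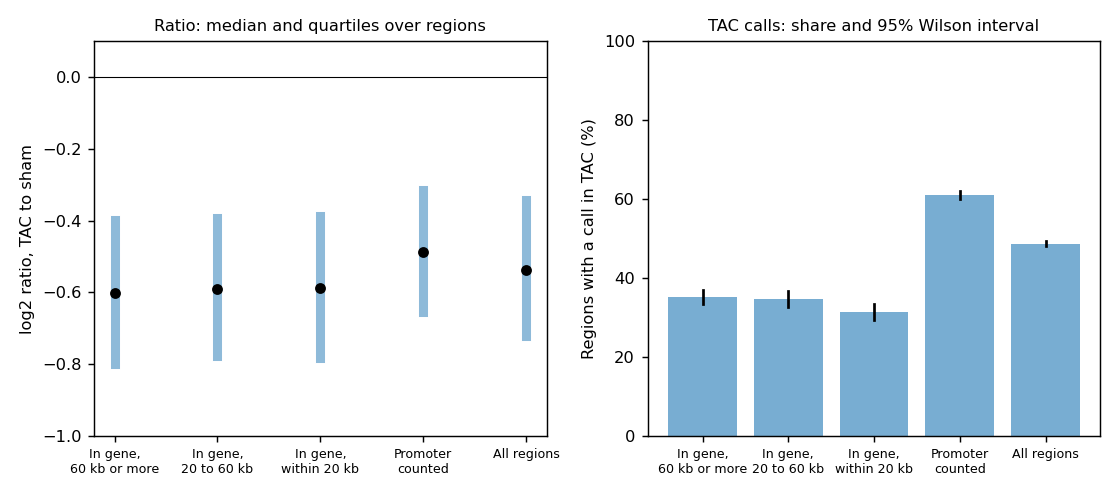
Left, the log2 ratio of TAC to sham signal by class of region, with points for medians and bars for quartiles over regions; right, the percentage of regions with a TAC call with 95% Wilson intervals. The 3 gene-body classes lie together, between -0.60 and -0.59 in median ratio and between 31.3% and 35.2% in calls, and the promoter class stands at -0.49 and 61.0%.

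Promoter regions carry more signal, so classes were also set side by side within 5 classes of mean signal of equal size over all regions. From the weakest to the strongest class the median ratio of far regions minus that of promoter regions was -0.07, -0.05, -0.09, -0.15 and -0.09. The same difference from gene-body regions within 20 kb was 0.03, -0.01, -0.02, -0.05 and -0.02. The TAC call share of far regions was 3.83%, 23.9%, 57.1%, 77.5% and 97.3%, against 6.96%, 25.1%, 47.9%, 68.5% and 88.0% for promoter regions. At matched signal, far regions were thus called less often than promoters in the weakest pair of classes and more often in the others. The number of far regions fell from 939 in the weakest class to 146 in the strongest. Among regions called in both libraries the median ratio was -0.49 for far regions, -0.46 within 20 kb, -0.45 at promoters and -0.46 over all regions.

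Signal and ratio varied little with distance beyond 60 kb. Distances ran from 60007 to 1602050 bp with a median of 122113 bp. The median ratio was -0.59 for 1048 regions at 60 to 100 kb, -0.61 for 1054 at 100 to 200 kb, -0.59 for 541 at 200 to 400 kb and -0.65 for 172 beyond 400 kb. Across the 2815 regions, Spearman's rho of distance was -0.05 with the ratio and -0.06 with the mean signal, and regions of 1 gene share that gene. The deepest region lay in Macrod2, an ADP-ribosylhydrolase gene, and had 8.36 in sham and 3.53 in TAC. The next were in Lrp1b, Rbfox1, a splicing regulator, and 2 regions of Pde4d, a cAMP phosphodiesterase of cardiomyocytes. At the 60 kb limit itself, the 3 regions just inside it lay in St3gal1 (60007 bp), Tnfrsf11a (60010 bp) and Tecpr2 (60022 bp), with ratios of -0.07, -1.05 and -0.61. The 3 just outside lay in Rgs12 (59993 bp), Actn4 (59872 bp) and Gatad2a (59868 bp), with ratios of -0.76, -0.61 and -0.17.

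The far regions lay in 1035 host genes, and few genes held many of them. There were 477 genes with 1 far region, 219 with 2, 183 with 3 or 4 and 156 with 5 or more, and the 156 held 1278 far regions (45.4%). RefSeq symbols matched 1029 host genes, 1007 of them protein-coding, and the midpoint lay within the RefSeq gene for 2806 of 2807 matched regions. The regions sat at a median of 62.1% of the gene's length. Whether a region covered exon or intron was not analysed here. Neighbouring far regions were joined into runs where gaps lay within the distance usual for stitching super-enhancers, and 545 such runs held 1531 far regions (54.4%). The share of other region classes in such runs was not computed, so whether far regions lie in runs more often was not tested. Whether a run is a super-enhancer was not tested either. The run with the most regions held 12 at chr19:53759749-53831675 in Rbm20, which encodes the splicing regulator of titin, and the next held 11 in Vps13d, a lipid transfer protein gene.

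Among the genes with the most far regions were Nav2 with 22, Nfia with 21, Cacna1c with 20, Fhod3 and Msi2 with 19 each, and Dlc1 and Rbm20 with 16 each. Nav2 encodes a cytoskeletal navigator protein, Nfia a nuclear factor I transcription factor, and Msi2 an RNA-binding protein. Cacna1c encodes the pore of the L-type calcium channel that starts each contraction. Its 20 regions had a median ratio of -0.72, 16 of them lay below the median of all regions (58.8% of far regions did), and 2 had a TAC call, where 35.2% of far regions and 48.7% of all regions had one. Rbm20 had a median of -0.69 and 1 TAC call. Fhod3, a formin that builds cardiac sarcomeres, had the lowest median of these 7 at -0.83, and Msi2 had the highest at -0.48. Within Nav2 the ratio ran from -1.19 to 0.29, with 9 TAC calls. Over the 156 genes with 5 or more regions the pooled SD of the ratio within a gene was 0.31, close to the 0.34 over all far regions, and the medians of these genes had an SD of 0.15.

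**Figure D3:**
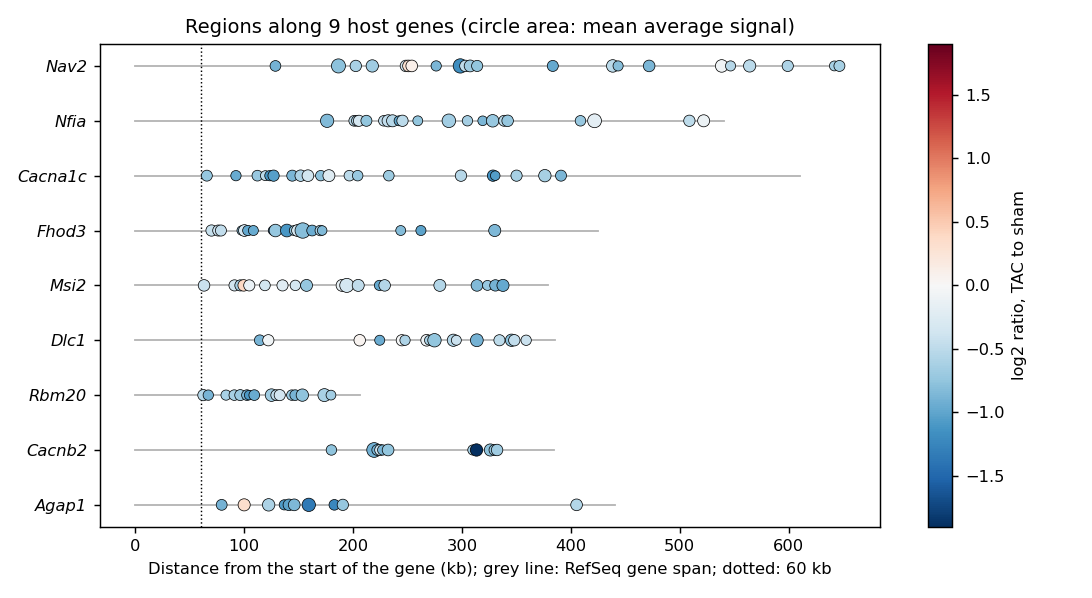
Far regions along 7 of the genes with the most of them and along Cacnb2 and Agap1, by distance from the listed start in kb; colour gives the log2 ratio of TAC to sham signal and circle area the mean average signal. Most circles are blue (lower in TAC), the Cacnb2 region at -1.89 is the darkest, and Nav2, Msi2, Dlc1 and Agap1 each hold regions at or above 0.

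The 10 strongest far regions were all lower in the TAC library, as were 94.7% of far regions and 94.6% of all regions. The Tns1 region (chr1:74048940-74050451), in the gene of the focal adhesion protein tensin 1, had 28.8 in sham and 14.3 in TAC and ranked 54 among all regions by mean signal. The Mtus2 region, in the gene of a microtubule-associated protein, had 27.6 and 14.1, and its highest signal of 116 in sham was the largest of any far region. The Mypn region, in the gene of the Z-disc protein myopalladin, had 23.3 and 10.6. The region of Itgb5, integrin beta 5, had 20.6 and 11.8. Cdh2, which encodes the N-cadherin of the intercalated disc, had 20.2 and 10.3. The region of Anks1, an adaptor gene, had 20.03 and 12.9, and that of Ppm1h, a phosphatase gene, had 19.97 and 12.2. Fkbp5, a glucocorticoid-induced co-chaperone of the glucocorticoid receptor, stood apart from these with 17.4 and 14.1, a ratio of -0.28. Syne1 and Sgms1 complete the 10. The Tns1 and Anks1 regions had a TAC call and no sham call despite their higher sham signal, and the others had both calls. In all, 2 far regions were among the 100 strongest of the table and 11 among the 1000 strongest. By the highest signal within a region, Fhod3 and Syn2 led the TAC library with 59 each, followed by Abca4 with 58 and Mylk, myosin light chain kinase, with 57. The Syn2 region is also listed for Timp4, a metalloproteinase inhibitor gene nested in Syn2.

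The far regions held both the lowest and the highest ratio of all 22020 regions. The lowest was a Cacnb2 region (chr2:14917052-14918355), in the gene of the beta subunit of the L-type calcium channel, with 15.4 in sham and 3.41 in TAC and a ratio of -1.89. The other 10 Cacnb2 far regions had ratios between -0.92 and -0.39. The highest was an Akap6 region (chr12:52950256-52951227), in the gene that anchors protein kinase A at the nuclear envelope of cardiomyocytes, with 2.14 in sham and 7.90 in TAC and a ratio of 1.502. The next in order among far regions, Leprel1 at 1.41 and Tnr at 1.33, were as weak. These 3 were called in TAC only, have mean signals under the median of all regions and were named after their values were seen. Far regions made up 23 of the 100 lowest ratios of the table and 15 of the 100 highest, next to their 12.8% of all regions. Of the 116 far regions a relative 1.5-fold lower, 17 reached the median mean signal of all regions, as did 22 of the 119 higher. The part of weak signal in these counts was not tested.

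Among the 797 far regions whose mean signal reached 8.98, the median over the whole table, the lowest ratios followed Cacnb2 in Rgs6, Agap1 and Ntn1. Rgs6, a regulator of G-protein signalling that sets the response of the heart to vagal input, had 14.2 in sham and 4.46 in TAC (-1.48). Agap1, an Arf GTPase-activating protein gene, had 16.1 and 5.73 (-1.34), and the gene of the guidance cue netrin 1, Ntn1, had 18.5 and 6.89 (-1.31). Myo5b at -1.22, Pde4dip at -1.19, Nav2 at -1.19, Slc38a6 at -1.16 and Lclat1 at -1.15 were also among the 10 lowest. Of the 10, 3 had a TAC call, where 76.8% of the 797, 35.2% of far regions and 48.7% of all regions had one. These 10 were picked by a low ratio, which at that signal implies a low TAC signal.

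The 10 highest ratios in the same set of 797 all had a TAC call, as did 76.8% of the set, and a high ratio at that signal implies a high TAC signal. The Cables1 region had 7.66 in sham and 11.7 in TAC (0.55), and that of Arnt2, a bHLH-PAS transcription factor gene, had 7.43 and 10.9 (0.50). Rbms3 (0.44), Iqck (0.44), Nsmce2 (0.34), Agap1 (0.34), Eml6 (0.26), Igf2bp3 (0.24), Mcc (0.23) and Vps53 (0.20) followed. For Igf2bp3 the highest signal within the region went the other way, at -0.23. Agap1 thus stood in both lists, with 1 region at 7.88 in sham and 10.2 in TAC among 9 others whose ratios lay between -1.34 and -0.55. Only 6 host genes held regions past a relative 1.5-fold in both directions, which were Agap1, Akap6, Cdh13, Mtus2, Nav2 and Pde7b.

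Far regions and the promoter of the same gene were set side by side for the 633 host genes that had a promoter-counted region within 5000 bp of the start. The median of a gene's far regions was typically 9.65 in sham and 6.41 in TAC, and the promoter region 12.4 and 8.68. Far regions were the stronger in 97 genes. The far ratio was lower than the promoter ratio in 356 genes (56.2%), with a median difference of -0.05 (-0.07 to -0.02 over genes). In 256 genes whose far and promoter signal differed by at most 0.32 on the log2 scale the difference was -0.07 (-0.11 to -0.03), lower in 154. The direction turned when only regions called in both libraries were used, with 99 of 219 genes lower and a median of 0.04 (-0.02 to 0.08). Among genes with 5 or more far regions, Agap1 (-0.74) and Prdm16 (-0.73) had the largest differences downward. The promoter region of Prdm16, a zinc-finger regulator of cardiac and brown fat identity, had 11.1 in sham and 11.0 in TAC, while its 12 far regions had medians of 9.64 and 5.98. Setbp1 (-0.69) and Itga9 (-0.46) were also low. Upward, Msi2 stood at 0.47, with a promoter region of 15.6 in sham and 7.57 in TAC and far medians of 9.52 and 6.43. Trio (0.44), Mtus1 (0.43), Lpp (0.32) and Zbtb16 (0.32) came next.

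**Figure D4:**
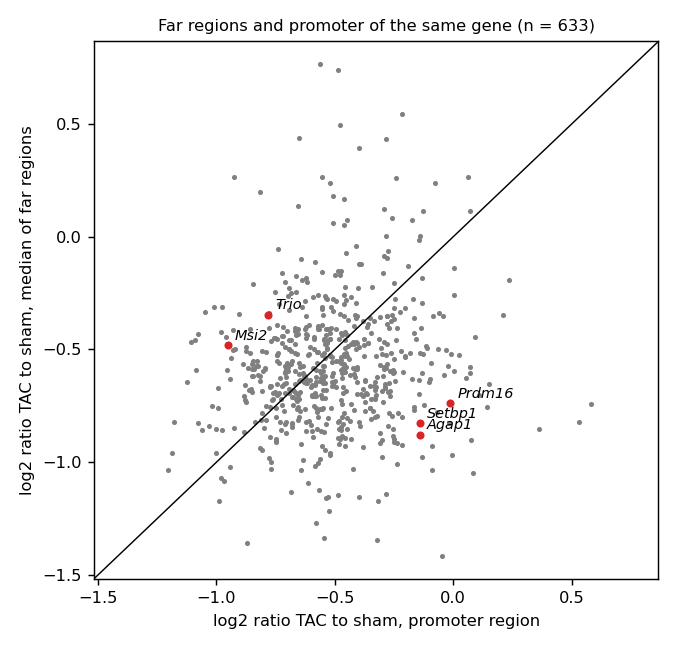
Median log2 ratio of a gene's far regions (vertical axis) against the log2 ratio of its promoter region (horizontal axis) for 633 genes; the line marks equality and 5 genes with 5 or more far regions are named. Agap1, Prdm16 and Setbp1 lie below the line by 0.69 to 0.74, and Msi2 and Trio above it by 0.44 to 0.47.

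The share of long genes with far regions differed between gene lists. Of 4162 protein-coding genes that span 60 kb or more in RefSeq, 1006 (24.2%, 22.9 to 25.5) held 1 or more, at a density of 5.47 far regions per Mb of gene beyond the first 60 kb. The share was higher in longer genes, from 8.25% of genes at 60 to 100 kb to 28.4% at 100 to 200 kb, 45.8% at 200 to 400 kb and 46.3% beyond 400 kb. Among 14 gene lists the density was highest for transcription factors and cofactors (24.3 per Mb; 22 of 27 long genes), for actin, adhesion and intercalated disc genes (18.5; 20 of 28) and for calcium handling and ion channels (14.6; 17 of 26). It was lowest for neuronal genes (0.567; 11 of 30) and for macrophage and leukocyte markers (1.14; 2 of 14). The lists were put together with some region-rich genes already known, so they are not independent evidence. Without Rbm20, Prdm16, Nfia and Zbtb16 the transcription factor list had 17.3 per Mb, and without Cacna1c and Cacnb2 the calcium list had 10.7. Density also depended on gene span. Over all protein-coding genes it was 6.40 per Mb at 60 to 100 kb, 7.73 at 100 to 200 kb and 7.94 at 200 to 400 kb. The neuronal genes are very long, and the density over all genes beyond 400 kb was 2.74 per Mb.

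**Figure D5:**
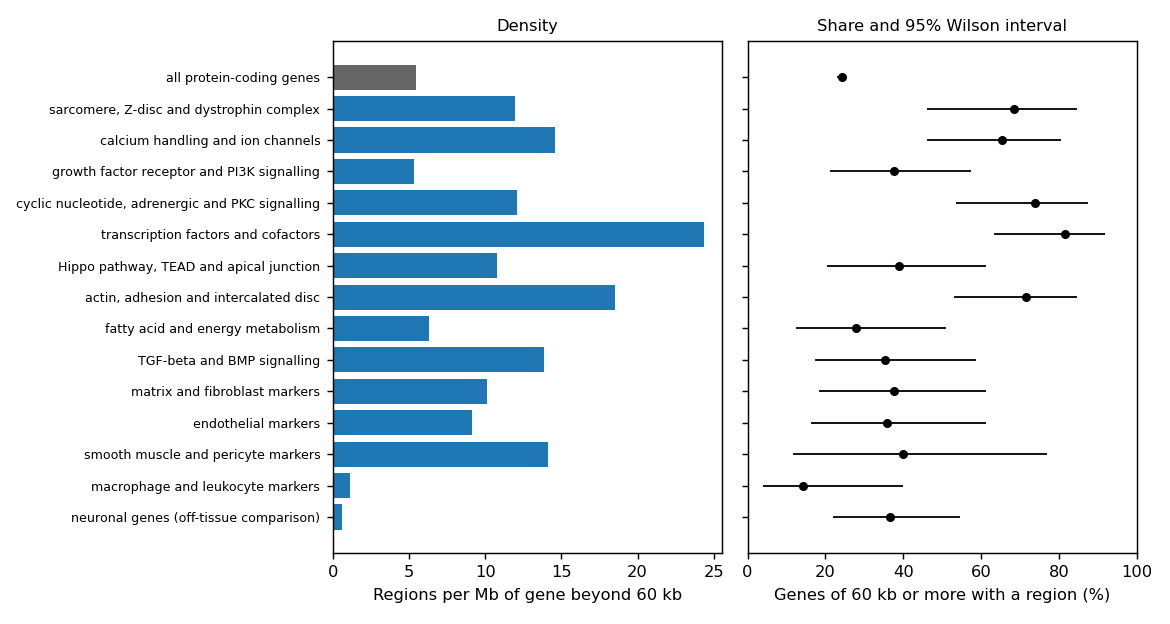
Left, far regions per Mb of gene beyond the first 60 kb for 14 gene lists (blue) and for all protein-coding genes of 60 kb or more (grey); right, the percentage of those genes with a far region and its 95% Wilson interval. Transcription factors reach 24.3 per Mb and neuronal genes 0.567, around 5.47 for all genes.

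Of all far regions, 1655 (58.8%) had a ratio below the median of the whole table. Median ratios of 12 of the 14 lists lay between -0.67 and -0.56, while the matrix and fibroblast list stood at -0.38 and the macrophage and leukocyte list, with 3 regions, at -0.90. Values given below for a gene of a list are those of its strongest far region by mean signal, and lowest and highest refer to the ratios of these strongest regions, so that weaker regions of a list can lie outside them. The sarcomere, Z-disc and dystrophin list held far regions in 13 of 19 long genes, with a median of -0.64 over 71 regions, 46 of them below the median of all regions. Its strongest were in Fhod3 (18.8 in sham and 10.3 in TAC) and Palld, the Z-disc protein palladin (16.1 and 9.07). Among the strongest regions of its genes the lowest ratio was in Ttn, the giant spring protein titin, with 14.1 and 6.18 (-1.07), and the highest in Utrn, utrophin, with 7.37 and 9.06 (0.26). The actin, adhesion and intercalated disc list had a median of -0.61 over 135 regions. Cdh2 and Lmo7 held its strongest regions. By each gene's strongest region Ank3, an ankyrin that anchors channels, had the lowest ratio (17.9 and 8.33, -1.02) and Vcl, vinculin, the highest (7.43 and 7.87, 0.07).

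The calcium handling and ion channel regions had a median ratio of -0.67, with 60 of 81 (74.1%) below the median of all regions, where 58.8% of far regions were. A TAC call was present in 17 (21.0%), where 35.2% of far regions and 48.7% of all regions had one. Their median signal was 9.28 in sham and 5.23 in TAC. Cacna1c and Cacnb2 gave 31 of the 81 regions, and without them the median was -0.57, with 34 of 50 below and 24.0% called. Camk2d, the calcium-dependent kinase of cardiomyocytes, had 12.4 and 8.51 at its strongest region. Among the strongest regions of these genes Trdn, the junctional protein triadin, had the lowest ratio, with 10.7 and 3.58 (-1.36), and Slc8a1, the sodium-calcium exchanger, the highest, with 11.3 and 9.35 (-0.25). The weaker Cacnb2 region at -1.89, described above, belongs to the same list. Ryr2, the calcium release channel of the sarcoplasmic reticulum, had 8 far regions with ratios between -0.997 and -0.54. Each was lower in TAC, as were 94.7% of far regions, and none had a TAC call. By mean signal all 8 fell in the weakest 2 of the 5 signal classes, where 3.83% and 23.9% of far regions had a TAC call.

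Cyclic nucleotide, adrenergic and PKC genes had a median of -0.62 over 93 regions in 17 of 23 long genes. Pde7b had 18.6 in sham and 10.5 in TAC, Adra1a, the alpha-1A adrenergic receptor, 17.0 and 9.10 (-0.83), and Prkca, protein kinase C alpha, 8.22 and 7.96 (-0.04). Growth factor receptor and PI3K genes had a median of -0.61 over 24 regions in 9 of 24. Insr, the insulin receptor, had 13.9 and 8.74 and Gab1, a docking adaptor, 13.5 and 8.72. Erbb4, the neuregulin receptor, had 11.2 and 5.42 (-0.93), and Igf1r, the IGF-1 receptor, 11.4 and 10.8 (-0.07). TGF-beta and BMP genes had a median of -0.67 over 14 regions in 6 of 17. Smad6, an inhibitory Smad, had 12.6 and 10.8, Tgfbr3 12.98 and 9.57, the receptor Acvr1 10.2 and 4.75 (-0.97), and the ligand Bmp6 7.68 and 6.61 (-0.19).

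The Hippo, TEAD and apical junction list held 24 far regions in 7 of 18 long genes, with a median of -0.65. Tead1, the main TEAD factor of the heart, had 8 of them, with ratios between -1.12 and -0.62 and no TAC call (35.2% of far regions and 48.7% of all regions had one), and 13.2 in sham and 6.81 in TAC at the strongest. Ptpn14, a phosphatase that binds Yap1, had 14.9 and 10.3, and the junction scaffold Magi1 14.1 and 8.73. Magi3, a related scaffold, had 6.48 and 8 (0.27). Transcription factors and cofactors had a median of -0.60 over 129 regions. Prdm16 had 19.6 and 10.7 at its strongest region. Meis2, a homeobox factor, had 7.06 and 2.17 (-1.35), and Tcf4, a bHLH factor, 12.0 and 10.5 (-0.19), with a TAC call in 11 of 14 regions. Fatty acid and energy metabolism genes had few far regions, 12 in 5 of 18 long genes with a median of -0.63. Ppargc1b, a co-activator of mitochondrial genes, had 16.8 and 9.24, Ppargc1a 11.4 and 4.56 (-1.16), and Rxra, a nuclear receptor, 12.3 and 11.2 (-0.13).

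Among marker genes of other cell types, smooth muscle and pericyte genes held 14.1 far regions per Mb, matrix and fibroblast genes 10.1 and endothelial genes 9.16. Macrophage and leukocyte genes held 1.14. The smooth muscle and pericyte density rests on 2 host genes of 5 long genes, over 0.707 Mb. The density was 5.47 over all genes and 7.73 over genes of 100 to 200 kb, the range that holds the median span of each of these lists. Matrix and fibroblast genes had a median of -0.38 over 14 regions, with 3 of 14 below the median of all regions, the highest of the 14 lists. Col4a2 and Col4a1, basement membrane collagens, had 16.4 and 11.1 and 10.4 and 7.61, while Lama2, laminin alpha 2, had 11.9 and 4.57 (-1.21). The Col4a2 region had a TAC call and no sham call. Col8a1 had 7.53 and 5.77 (-0.33). Endothelial genes had a median of -0.62 over 32 regions in 5 of 14, with Ptprm at 14.5 and 8.23 and Cdh13, T-cadherin, at 11.5 and 9.53. Smooth muscle and pericyte genes had a median of -0.56 over 10 regions, 9 of them in Rbpms (12.8 and 7.44 at the strongest) and 1 in Ebf1 (6.26 and 7.56, 0.24). Macrophage and leukocyte genes had a median of -0.90 over 3 regions, 2 in Runx1 (10.7 and 5.27 at the strongest) and 1 in Elmo1 (6.71 and 8.23, 0.26). Neuronal genes had a median of -0.64 over 17 regions, led by Astn2 (13.1 and 8.06) and Dlgap1 (11.1 and 9.66). The only far region of Dscam stood at -0.85. Shifts in cell composition between the operations were not measured by these data, and their part in any of these values was not tested.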

How the data were processed

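Chromatin from whole mouse heart was precipitated with an anti-YAP1 antibody, 1 library per operation. Reads were aligned with BWA and regions called with MACS 1.4.2 on mm10, per the submitters' processing notes. In the authors' deposited table stand, per the file headers, the average and the highest signal of each library in each merged region, a call mark per library, and gene, position, promoter and CpG island annotation. The sources used here do not give the scaling between libraries, the peak threshold or the depth, so depth is unknown and no floor is given. A region entered the table through a call in 1 or both libraries.

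Ratios were computed from the deposited average signal as log2((TAC + 1)/(sham + 1)), with a pseudocount of 1. The fixed size was 1.5-fold. Intervals are 95% Wilson intervals for shares and order-statistic intervals for medians, and cover counting over regions or genes only, not mice. The host gene was the in-gene entry nearest its start. Names, spans and sequences came from RefSeq (GRCm38.p6), and far regions without a span match (8) stayed out of densities. Named genes followed a rule: the 10 strongest regions, the 10 highest and 10 lowest ratios at or above the median signal, the 5 highest maxima per library, the 5 deepest, 3 each side of the limit, the 8 richest hosts, and the strongest pair, lowest and highest of each list. A few genes picked by these rules are not reported here. Other named genes were chosen after their values were seen, as was the GGAAA search. The members, the 14 lists (362 genes) and the rules were chosen with earlier results of these data known. Sequences at region centres and their planned motif search were not analysed here, and RefSeq windows took their place. Selection and medians were tested on simulated data (Python 3.11.15, pandas 2.3.3, scipy 1.17.1). Alternatives covered the pseudocount, maximum signal, weak regions, calls, distance, length, region choice, sex chromosomes, size and quantile normalization.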

Additional observations from a re-analysis of the deposited data

How the results depend on the processing

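Of 126 values recomputed under 14 alternatives, 69 stayed within the spread or within 1.5 times of the count, 56 moved and 1 turned direction. The alternatives of 40 kb, regions listed for 1 gene, and no sex chromosomes moved none, and leaving out the genes already known from 2 lists (chosen after seeing the data) moved no density by 1.5 times. No paired analysis was possible because there is 1 library per operation. The result that turned was the difference between far regions and promoter of a gene, from -0.05 to 0.0375 among regions called in both libraries; it was -0.0153 with maximum signal, -0.0071 with a pseudocount of 5 and -0.0044 after quantile normalization. The median ratio of far regions (-0.60) was -0.64 with a pseudocount of 0.5, -0.41 with 5, -0.58 with maximum signal, -0.58 at or above the median signal, -0.49 among regions called in both, -0.59 with the strongest region per gene and -0.0585 after quantile normalization, which takes away most of the shift between the libraries. Its difference from all regions (-0.06) was -0.0287 with a pseudocount of 5, -0.0375 with maximum signal, -0.0285 among regions called in both, -0.0494 with the strongest per gene and -0.0325 after quantile normalization. That from regions within 20 kb (-0.01) was -0.0324 with maximum signal, -0.0316 at or above the median signal and -0.0324 among regions called in both.

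Counts past 1.5-fold lower as deposited (1478) were 533 with a pseudocount of 5, 394 at or above the median signal, 339 when called in both, 953 at 100 kb, 519 with the strongest per gene, 65 after quantile normalization and 237 at a 2-fold size. Those higher (15) were, in the same order, 3, 0, 0, 8, 8, 116 and 3, and 26 with maximum signal. Relative counts lower (116) were 5 with a pseudocount of 5, 280 with maximum signal, 19 at or above the median signal, 15 when called in both, 41 with the strongest per gene, 61 after quantile normalization and 4 at 2-fold. Relative counts higher (119) were 46, 199, 18, 21 and 48 in that order, and 28 at 2-fold. For these relative counts the median of all regions was taken anew under each alternative. With the median of the whole table subtracted instead, far regions at or above the median signal numbered 17 lower and 22 higher. Which direction held more of these regions thus depended on the median subtracted. The share with a TAC call (35.2%) was 76.8% at or above the median signal, 100% by construction when called in both, 30.1% under 4000 bp and 50.3% with the strongest per gene. The median sham signal (9.54) was 12.4, 11.4, 9.29 and 10.6 in that order, 20 with maximum signal and 8.03 after quantile normalization. The cause of each move was not tested.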

Other observations

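Annotated starts of other genes lay inside 39 far regions, and a miRNA hairpin lay inside 2. Mir6899 lay in the Klf7 region, whose average signal was 11.5 in the sham and 8.497 in the TAC library. Mir8095 lay in the Dgkg region, where it was 9.53 and 6.49. Of 4162 protein-coding genes that span 60 kb or more, 3156 held no far region. Sham and TAC signal of the far regions had a Spearman's rho of 0.47 across regions, against 0.67 over all regions and 0.73 at promoters. These rhos describe how regions rank in 2 libraries of the same tissue, and the far regions span a narrower range of signal.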
